A study of Mus musculus with 12 samples.

Results

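Open chromatin was examined around 4 genes of the enteroendocrine cell, the hormone-secreting cell of the intestinal epithelium. Chga and Chgb encode chromogranins of the secretory granule, and Gcg and Sct encode the hormone precursors proglucagon and prosecretin. The members were all consensus peaks that overlapped a window around each gene on the mm9 build of the mouse genome, namely chr12:103750000-103845000 for Chga, chr2:132565000-132665000 for Chgb, chr2:62270000-62365000 for Gcg and chr7:148420000-148510000 for Sct. When the peaks of all populations were merged, the windows held 41 of the 82365 merged regions of the series. The Chga window held 20 regions, the Chgb window 7, the Gcg window 3 and the Sct window 11.

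The cells were intestinal epithelial cells of C57Bl/6 mice with a Sox9EGFP reporter, which makes cells fluoresce in step with Sox9, a regulator of crypt cells. They fell into 4 populations named by reporter level, Sox9 Negative, Sox9 Sublow, Sox9 Low and Sox9 High, with 3 Omni-ATAC libraries each and 12000 cells collected per population. The labels give no age or sex of the animals, name no treatment, and do not tie replicate libraries to single mice. Each population is given as 1 consensus list of peaks, that is, of intervals where the transposase of the assay had cut often enough to be called. The lists hold no height and no value per library, so no replicate error can be given and no test across replicates was possible. A missing peak means that none was listed, not that the DNA was closed.

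Enteroendocrine cells are rare, scattered cells that sense the gut content and release peptide hormones from dense core granules. Chromogranins are acidic proteins that are packed with hormones into these granules, and Chga is the usual marker of the whole lineage. Each hormone marks a subset of the cells. Proglucagon is cut into glucagon-like peptides in the L cells of the gut, and secretin, from the S cells, causes the pancreas to secrete bicarbonate. In earlier work with this reporter mouse, the population of the highest reporter level was enriched for enteroendocrine cells, the Low population for stem cells, the Sublow population for dividing progenitors and the Negative population for differentiated cells. Each sorted population is a mixture of cells, so a larger number of enteroendocrine cells and more open chromatin per cell cannot be told apart.

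The promoters of the 4 genes are printed because they are the regulatory sequences of the members that the sources at hand give. They come from RefSeq on another build, GRCm38.p6, and cover the 250 bases before the annotated start. A lift to mm9 was not made, so no peak below was placed on a promoter, exon or intron. Capitals mark the motifs that were searched on both strands in the 300 bases from 250 before to 50 after the start. These were the TATA box (TATAAA), the core of the cAMP response element (TGACGT), and the E-boxes CAGATG and CAGCTG, which are bound by basic helix-loop-helix factors. The Chga promoter is chr12:102554691-102554940 on the plus strand, and the Chgb promoter is chr2:132781392-132781641 on the plus strand. The Gcg promoter is chr2:62483654-62483903 on the minus strand, and the Sct promoter is chr7:141279134-141279383 on the minus strand.
Chga: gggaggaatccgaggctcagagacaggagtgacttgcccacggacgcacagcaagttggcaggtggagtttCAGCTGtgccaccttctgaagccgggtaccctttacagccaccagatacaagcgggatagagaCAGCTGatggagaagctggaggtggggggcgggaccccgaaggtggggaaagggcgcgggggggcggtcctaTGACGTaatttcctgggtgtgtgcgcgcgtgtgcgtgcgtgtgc
Chgb: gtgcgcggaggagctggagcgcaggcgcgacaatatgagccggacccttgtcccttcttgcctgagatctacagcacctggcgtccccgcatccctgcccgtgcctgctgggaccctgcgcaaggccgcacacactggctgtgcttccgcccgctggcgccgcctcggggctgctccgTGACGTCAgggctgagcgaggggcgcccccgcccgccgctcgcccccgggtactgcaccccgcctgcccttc
Gcg: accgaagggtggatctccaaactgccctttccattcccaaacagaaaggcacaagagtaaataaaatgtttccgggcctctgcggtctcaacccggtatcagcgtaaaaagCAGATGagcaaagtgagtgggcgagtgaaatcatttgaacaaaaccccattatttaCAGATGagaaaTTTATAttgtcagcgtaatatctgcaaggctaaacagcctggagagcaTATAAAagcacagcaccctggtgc
Sct: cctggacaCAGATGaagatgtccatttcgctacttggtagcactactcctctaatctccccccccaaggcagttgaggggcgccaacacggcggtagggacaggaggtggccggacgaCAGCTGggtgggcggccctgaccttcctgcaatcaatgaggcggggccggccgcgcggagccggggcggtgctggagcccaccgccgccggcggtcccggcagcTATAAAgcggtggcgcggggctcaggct

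The cAMP response element core was found in the granule genes and the E-box CAGATG in the hormone genes, while CAGCTG and TATAAA were found in both kinds. The core lay in Chga 44 to 39 bases before the start, and also in Chgb, where both strands matched and the overlapping matches spelled the full palindrome from 72 to 65 bases before the start. It was found in neither Gcg nor Sct. CAGATG lay in Gcg at 139 to 134 and at 83 to 78 bases before the start, and in Sct at 242 to 237 bases before it, and in neither Chga nor Chgb. The TATA box of Gcg lay 24 to 19 bases and that of Sct 28 to 23 bases before the start. Both hormone genes thus had these letters close to the start. Gcg had another match on the minus strand at 72 to 67 bases. In Chga the TATAAA match lay 6 to 11 bases after the annotated start, in the part not printed. CAGCTG was found in Chga at 179 to 174 and 116 to 111 bases before the start, in Sct at 132 to 127 bases before it, and in Chgb at 31 to 36 bases after it.

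These letters were also common elsewhere. Of 32851 promoter windows of the same table, 13.6% held TATAAA, 7.51% the cAMP response element core, 17.2% CAGATG and 16.3% CAGCTG. Among 26 other enteroendocrine genes listed for comparison, 20 had a promoter in the table. The cAMP response element core was in 4 of them, namely the hormone gene Sst, the granule genes Scg2 and Scg5, and Pcsk1, which encodes a prohormone convertase. CAGATG was in 5 of the 20, all of them hormone genes (Cck, Ghrl, Tac1, Insl5 and Iapp). Other hormone genes with a promoter in the table, among them Gip, Sst and Nts, lacked it. CAGCTG was in 6 (Gip, Ghrl, Nts, Pcsk2, Pam and Resp18) and TATAAA in 2 (Insl5 and Ddc). The guanine and cytosine content of the 250 bases was 62.4% in Chga, 72.8% in Chgb, 44.8% in Gcg and 68.0% in Sct, against a median of 52.4% over all promoters. A match of letters is a description and not a site.

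The High list had the most peaks in each of the 4 windows. Over the windows together there were 18 peaks in Negative cells, 19 in Sublow cells, 18 in Low cells and 30 in High cells. High had 1.67 times as many peaks as Low here, whereas over the whole series it had 0.932 times as many (54395 against 58356). It also had 1.67 times as many as Negative here, against 1.20 times over the whole series. The bases under peaks were 6781 bp in Negative cells, 8000 bp in Sublow cells, 8185 bp in Low cells and 13029 bp in High cells, which is 1.59 times the Low value, whereas over the whole series High covered 0.860 times as many bases as Low. The surplus was unevenly spread over the genes. The ratio of High to Negative peaks was 1.38 at Chga, 7 at Chgb, 3 at Gcg and 1.12 at Sct, and the ratio of High to Negative bases was 1.997 at Chga, 3.62 at Chgb, 4.04 at Gcg and 1.36 at Sct. At Gcg these ratios rest on 3 High peaks and 1 Negative peak. Among the widest 45461 peaks of each list, as many as the Negative list holds, High led in bases in all 4 windows. In peaks it led at Chgb and Sct only, with 7 High against 8 Negative peaks at Chga and 2 High against 2 in the next list at Gcg. This setting drops narrow High peaks but no Negative peak. With peaks of at least 200 bp in every list, Chga had 7 High against 6 Negative peaks, and Gcg again had 2 against 2 in the next list.

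**Figure D1:**
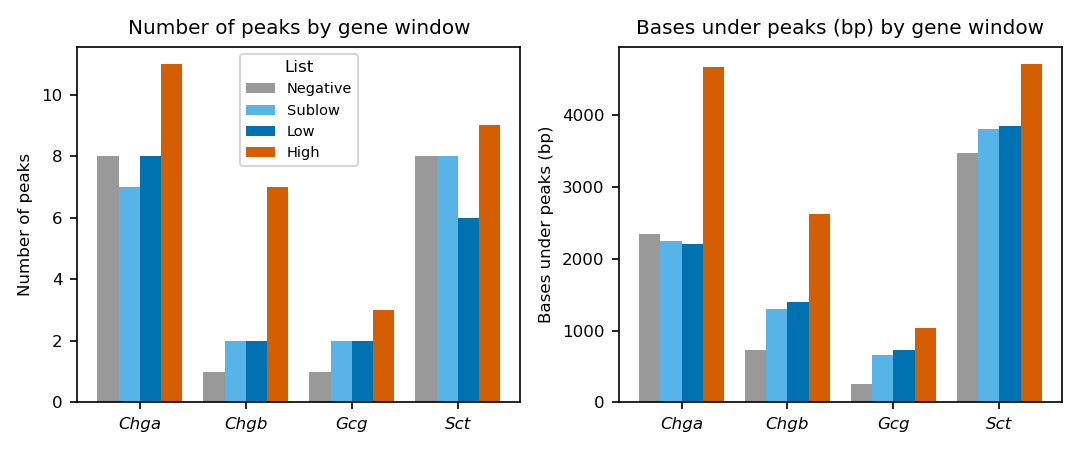
Number of peaks (left) and bases under peaks in bp (right) in each gene window, with 1 bar per consensus list in the order of reporter level. The High bar is the tallest in every window, from 3 peaks at Gcg to 11 at Chga, and its lead in bases is widest at Chga, with 4667 bp against at most 2337 bp in the other lists.

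High held 30 of the 41 regions, or 73.2% (57.1 to 85.8%), and that interval included the background of 65.1% of all merged regions. The other lists held fewer of them than of all regions. Negative held 17 (41.5%, 26.3 to 57.9%, background 53.9%), Sublow 18 (43.9%, 28.5 to 60.3%, background 62.8%) and Low 18 (43.9%, 28.5 to 60.3%, background 69.8%). The Negative interval included its background. Regions listed in High alone were the commonest kind in the windows. They numbered 15 of 41, or 36.6% (exact 95% binomial interval 22.1 to 53.1%), against a background of 16.6% of all merged regions. Another 6 regions were held by High with Low, or with Low and Sublow, and not by Negative. Of these, 1 was of Low and High (2.44%, background 5.98%) and 5 were of Sublow, Low and High (12.2%, background 7.49%). Regions held by High and not by Negative thus numbered 21 of 41 (51.2%, 35.1 to 67.1%), against a background of 30.4%. That count includes the 15 High-alone regions and is not a result apart from them. Regions of all 4 lists numbered 8 of 41 (19.5%, 8.82 to 34.9%), against a background of 33.1%. The share of High-alone regions was thus above its background and the interval of the share in all 4 lists included its background. With windows widened by 20 kb, 19 of 63 regions (30.2%) were in all 4 lists. Regions held by Negative and not by High also numbered 8 (19.5%), near the background of 19.2%. High lacked 11 regions (26.8%, 14.2 to 42.9%), against a background of 34.9%. Negative alone held 5 regions (12.2%, 4.08 to 26.2%, background 6.82%). Low alone held 2 (4.88%, 0.596 to 16.5%, background 6.41%) and Sublow alone held 0 (0 to 8.60%, background 2.06%). Each of these intervals included its background. The intervals cover counting error only and treat neighbouring regions as independent, and the windows were chosen with earlier results of these data known, so no test was made. The interval of the High-alone share included the series share with peaks of at least 200 bp (29.0%, 14.2 to 48.0%, against 15.3%), with the widest peaks of each list (27.3%, 13.3 to 45.5%, against 16.5%) and with regions of at least 500 bp (15.4%, 1.92 to 45.4%, against 3.23%). Without the Chgb window the share of High alone was 29.4% (15.1 to 47.5%), an interval that also includes the background.

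**Figure D2:**
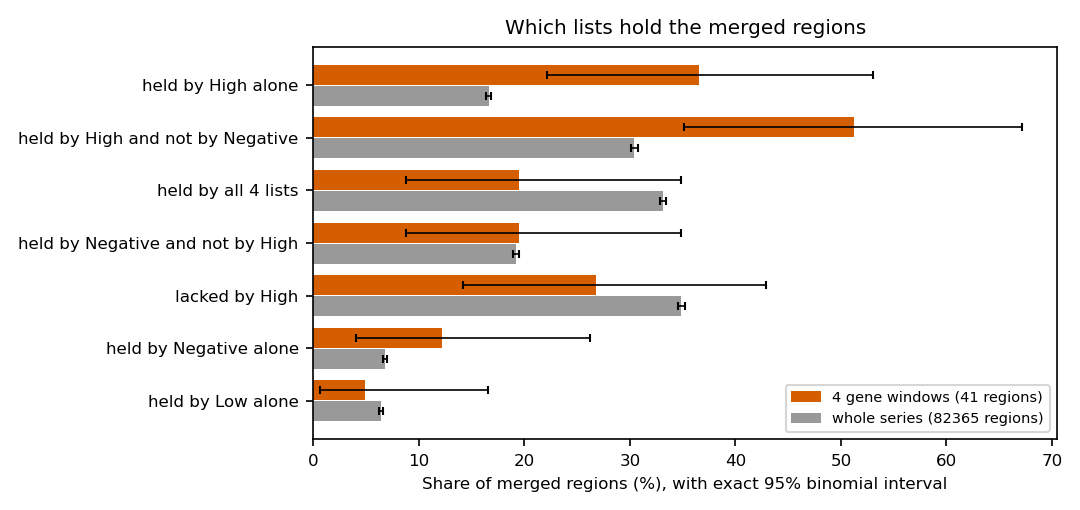
Share of merged regions (%) by the lists that hold them, for the 41 regions of the 4 gene windows and for the 82365 regions of the series, with exact 95% binomial intervals. Regions of High alone make up 36.6% in the windows and 16.6% in the series, and regions of all 4 lists 19.5% and 33.1%.

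The genes differed from each other when set beside other stretches of the genome. Adjoining windows of the same length were laid along each chromosome from its first base, and those with at least 1 merged region were counted. The 7 High-alone regions of the Chga window were reached in 0.113% of such windows (18 of 15986), and the 5 of the Chgb window in 1.31% (202 of 15379). The 2 of the Sct window were reached in 19.6%, and the 1 of the Gcg window in 52.8%. The Gcg and Sct counts were thus common values. With peaks of at least 200 bp only, 2 High-alone regions were left at Chgb and 0 at Gcg. The Chga window was also rich in regions, with 20 against a median of 4 per window, whereas Chgb had 7. As a share of the window's regions, High alone held 35.0% at Chga (15.4 to 59.2%), against a background of 16.6%. That interval included the background. At Chgb the share was 71.4% (29.0 to 96.3%), an interval above it. The part that the number of regions has in the Chga count was not tested. For the surplus of High over Negative peaks, the 3 at Chga were reached in 14.1% of windows, the 6 at Chgb in 1.99%, the 2 at Gcg in 27.1% and the 1 at Sct in 51.9%.

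**Figure D3:**
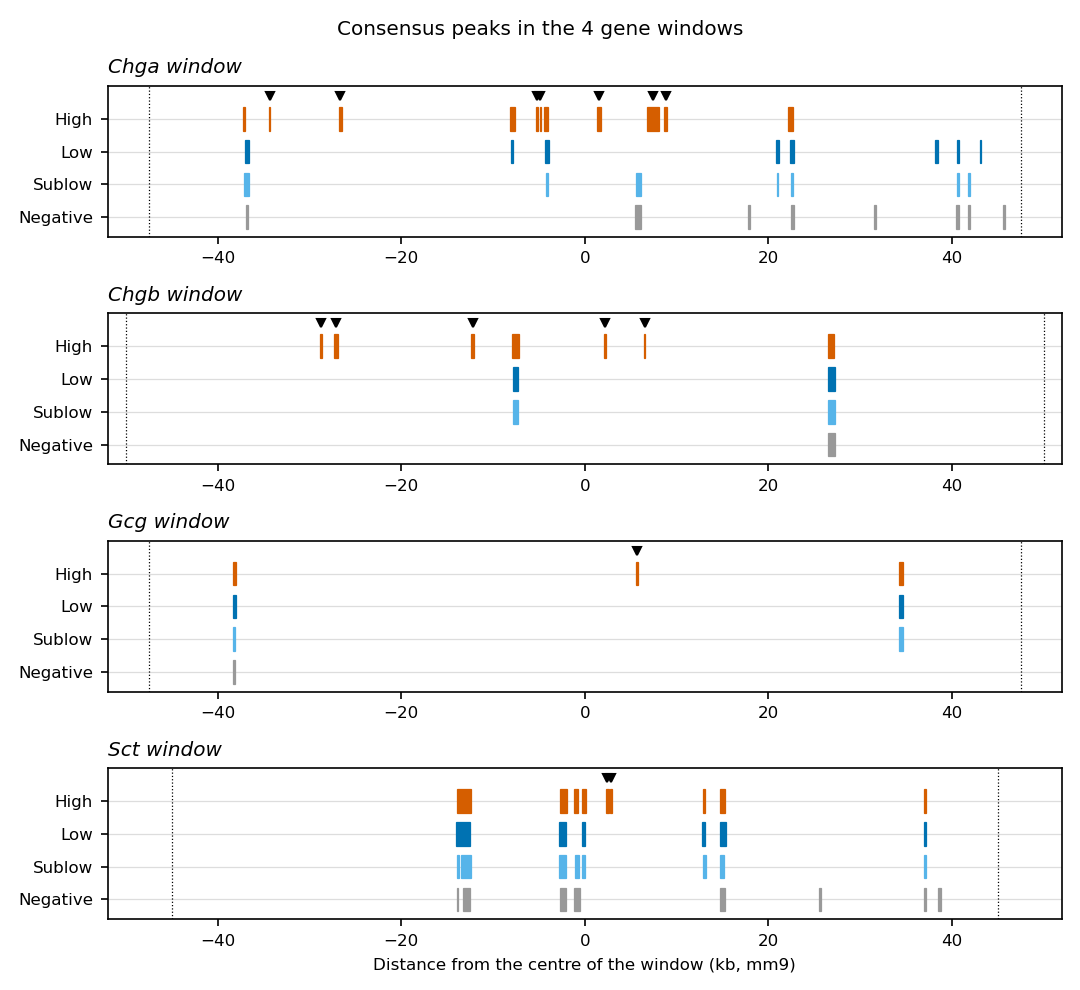
Consensus peaks in the 4 gene windows, drawn to scale along the distance from the window's centre in kb on mm9 (dotted lines mark the window ends, and the narrowest peaks have the least line width that can be drawn). Rows are the lists and black triangles mark the 15 merged regions held by High alone, of which 7 lie in the Chga window, 5 in Chgb, 1 in Gcg and 2 in Sct.

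Chga, the lineage marker, had 8 peaks in Negative cells, 7 in Sublow cells, 8 in Low cells and 11 in High cells. In the RefSeq gene order of GRCm38.p6 it lies between Golga5, which encodes a Golgi coiled-coil protein, and Itpk1, which encodes an inositol phosphate kinase, so regions of the window may belong to neighbours. The bases under peaks were 2337 bp in Negative cells, 2242 bp in Sublow cells, 2205 bp in Low cells and 4667 bp in High cells. The 3 lower reporter levels were thus alike in bases and High stood above them. High and Negative shared 296 bp here, which was 6.34% of the High bases and 12.7% of the Negative bases. The High and Negative peaks of this window were thus mostly at different places. Shared bases were not computed over the whole series, so the overlaps given here and at the other genes have no background.

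The widest region of High alone at any of the 4 genes was at Chga, chr12:103804244-103805639, at 1396 bp. Of the 13694 High-alone regions of the series, 3 were at least that wide, this one included. A narrower High-alone region, chr12:103806164-103806466 (303 bp), followed 524 bp farther on. Another, chr12:103798806-103799311, was 506 bp wide, and 7.29% of High-alone regions reached that width. Between it and the widest one lay a region with the opposite pattern, chr12:103802970-103803626, which Negative held over its full 657 bp and Sublow over 522 bp, and which Low and High lacked. It ended 617 bp before the widest High-alone region began. A region listed in Negative and Sublow and one listed in High thus stood side by side at this gene.

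A cluster of 4 regions ended 5252 bp before these. Its first, chr12:103789305-103789870, was 176 bp wide in Low cells and 566 bp in High cells, 3.22 times the Low width, and had no Sublow or Negative peak. Its last, chr12:103793015-103793553, was 235 bp wide in Sublow cells, 339 bp in Low cells and 423 bp in High cells, with no Negative peak. Both regions were thus absent at the lowest reporter level and widest at the highest. Between them High alone held chr12:103792181-103792369 (189 bp) and chr12:103792643-103792681 (39 bp). The second of these is so narrow that 99.8% of the High-alone regions reached its width. Farther out, High alone held chr12:103770682-103771058 (377 bp) and chr12:103763090-103763240 (151 bp).

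The upper end of the Chga window was mostly without High peaks. Over the whole window High lacked 9 of 20 regions (23.1 to 68.5%). This share was above the background of 34.9%, but its interval included the background. Of the 11 regions below chr12:103815241, High held 10, and of the 9 regions from that position to chr12:103843250 it held 1. This division was made after the values were seen and was not set beside the whole series. The 8 regions that High lacked there were 3 of Negative alone, chr12:103815241-103815513 (273 bp), chr12:103829058-103829226 (169 bp) and chr12:103843075-103843250 (176 bp), and 2 of Low alone, chr12:103835712-103835967 (256 bp) and chr12:103840548-103840721 (174 bp). The others were chr12:103818365-103818655 of Sublow and Low, chr12:103837987-103838304 of Negative, Sublow and Low, and chr12:103839232-103839483 of Negative and Sublow. High peaks thus ran from the lower end through the middle of the window, and most regions at its upper end were of lower reporter levels only.

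The 2 Chga regions of all 4 lists behaved in opposite ways. At chr12:103819678-103820250 the peak was 319 bp wide in Negative cells, 291 bp in Sublow cells, 348 bp in Low cells and 550 bp in High cells. At chr12:103760301-103760954 it was 263 bp wide in Negative cells, 577 bp in Sublow cells, 431 bp in Low cells and 167 bp in High cells. The High peak was the widest in one and the narrowest in the other. In the second region the High peak met the Low and Negative peaks only through the Sublow peak, which overlapped them all.

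Chgb, the other chromogranin gene, had 1 peak in Negative cells, 2 in Sublow cells, 2 in Low cells and 7 in High cells. In the GRCm38.p6 gene order it lies between Shld1, a DNA repair gene, and Trmt6, a subunit of a tRNA methyltransferase. The bases under peaks were 724 bp in Negative cells, 1293 bp in Sublow cells, 1401 bp in Low cells and 2618 bp in High cells. Unlike at Chga, High lacked no region of the window (0 of 7, 0 to 41.0%), but that interval included the background of 34.9%. Its peaks covered 98.9% of the Negative bases, 94.9% of the Sublow bases and 94.1% of the Low bases.

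The 5 High-alone regions of Chgb lay on both sides of 1 shared region. The widest was chr2:132587642-132588125 at 484 bp, a width that 8.66% of High-alone regions of the series reached, and the next was chr2:132602643-132602959 at 317 bp. The other 3 were narrow, with chr2:132586170-132586328 at 159 bp, chr2:132617121-132617281 at 161 bp and chr2:132621503-132621597 at 95 bp. The 5 lay 4144 bp to 20775 bp from the nearest region of another list, while the median over the High-alone regions of the series was 8532 bp. The shared region among them, chr2:132607104-132607777, was 499 bp wide in Sublow cells, 590 bp in Low cells and 674 bp in High cells, and Negative lacked it. Its width thus followed the reporter level.

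The remaining Chgb region was held at nearly the same width by all populations. At chr2:132641454-132642267 the peak was 724 bp wide in Negative cells, 794 bp in Sublow cells, 811 bp in Low cells and 728 bp in High cells. It was the widest merged region of the window, at 814 bp, and the only one that Negative held. From the lower end of the window to this region, 76.5 kb, there was no Negative peak, and the longest stretch of the window without a High peak was 22.8 kb. Both stretches begin or end at the window edge, so they are minimum lengths.

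Gcg, the proglucagon gene, had the sparsest window, with 1 peak in Negative cells, 2 in Sublow cells, 2 in Low cells and 3 in High cells. In the GRCm38.p6 gene order it lies between Dpp4, which encodes the protease that inactivates glucagon-like peptide hormones, and Fap, which encodes a related protease. The bases under peaks were 257 bp in Negative cells, 664 bp in Sublow cells, 731 bp in Low cells and 1037 bp in High cells. As at Chgb, High lacked no region (0 of 3, 0 to 70.8%), and the interval included the background of 34.9%. High peaks covered 100% of the bases of each of the other lists. The bases under peaks were thus in the order of the reporter level, as they also were at Chgb and Sct. Over the whole series Negative, Sublow and Low stood in that order too, with 21547210, 28656274 and 30148082 bp, while High had 25930318 bp.

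High alone held the region nearest to the centre of the Gcg window, chr2:62323109-62323296, at 188 bp. It was an ordinary High-alone region by width, since 70.9% of them reached it, and it lay 28389 bp from the nearest region of another list. The region chr2:62351686-62352161 was 411 bp wide in Sublow cells, 403 bp in Low cells and 476 bp in High cells, with no Negative peak. The region of all 4 lists, chr2:62279133-62279505, was 257 bp wide in Negative cells, 253 bp in Sublow cells, 328 bp in Low cells and 373 bp in High cells. High had the widest peak in both. Between these outer regions Sublow and Low had no peak over 72.3 kb and 72.2 kb, so in the interior of the window the High peak stood alone.

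Sct, the secretin gene, had a window with many peaks of each population, with 8 peaks in Negative cells, 8 in Sublow cells, 6 in Low cells and 9 in High cells. In the GRCm38.p6 gene order it lies between Cdhr5, which encodes a cadherin of the enterocyte brush border, and Drd4, a dopamine receptor gene. The bases under peaks were 3463 bp in Negative cells, 3801 bp in Sublow cells, 3848 bp in Low cells and 4707 bp in High cells. High peaks covered 92.0% of the Low bases, 90.2% of the Sublow bases and 77.1% of the Negative bases. By the ratio of High to Negative bases, 1.36, the lists differed least at Sct.

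A group of 5 regions stood near the centre of the Sct window, from chr7:148462139 to chr7:148467951. High alone held 2 of them 153 bp apart, chr7:148467324-148467583 (260 bp) and chr7:148467737-148467951 (215 bp). Before them stood chr7:148464686-148465179, which was 298 bp wide in Sublow cells, 361 bp in Low cells and 489 bp in High cells and had no Negative peak. Its neighbour 243 bp away, chr7:148463821-148464442, ran the other way, at 622 bp in Negative cells, 447 bp in Sublow cells and 374 bp in High cells, and Low lacked it. Among the lists that held each, these adjacent regions of this gene thus had opposite orders of width. The missing Low peak breaks the order of the second along the reporter levels. The first of the group, chr7:148462139-148463025, was held by all, at 724 bp in Negative cells, 813 bp in Sublow cells, 829 bp in Low cells and 770 bp in High cells.

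The other Sct regions were mostly shared. The widest merged region of all 4 genes, chr7:148451016-148452595 (1580 bp), held 2 Negative peaks of 905 bp in all, 2 Sublow peaks of 1252 bp in all, 1 Low peak of 1505 bp and 1 High peak of 1523 bp. The region chr7:148479692-148480334 was 524 bp wide in Negative cells, 482 bp in Sublow cells, 643 bp in Low cells and 612 bp in High cells, and chr7:148501932-148502208 was 205 bp, 160 bp, 163 bp and 216 bp wide in that order of lists. Among the regions lacking in 1 or more populations, chr7:148477791-148478188 was 349 bp wide in Sublow cells, 347 bp in Low cells and 248 bp in High cells, and Negative lacked it. Negative alone held chr7:148490530-148490745 (216 bp) and chr7:148503496-148503762 (267 bp). These were the only Sct regions that High lacked (2 of 11, 18.2%, 2.28 to 51.8%, background 34.9%).

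**Figure D4:**
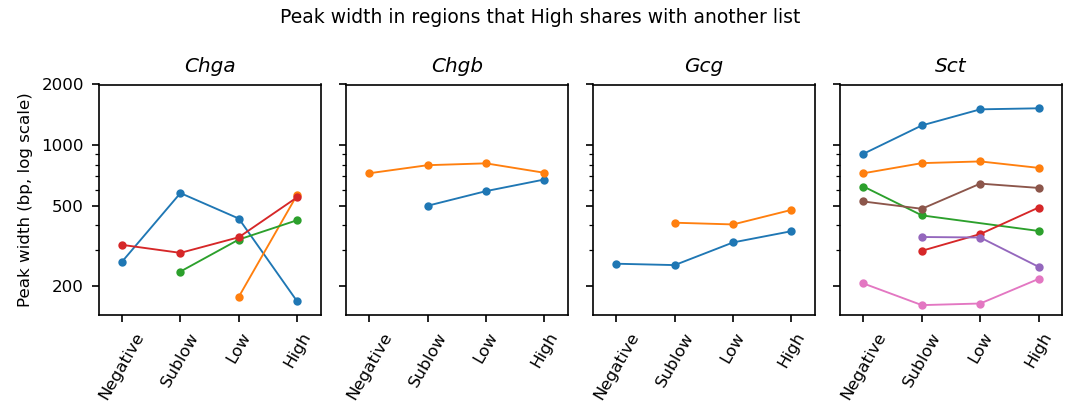
Peak width in bp (log scale) in each list for the 15 merged regions that High shares with at least 1 other list, by gene, with 1 line per region and summed widths where a list has 2 peaks in a region. A missing point means that the list has no peak there. High has the widest peak in 9 of the 15 regions, a count for which no share over the series was computed.

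Where High shared a region with other lists, its peak was often but not always the widest. It was the widest of all lists that held the region in 9 of 15 regions, among them both Gcg regions and 3 of the 4 at Chga. The share over all regions that High shares in the series was not computed, so this count has no background. In the 7 regions of all 4 lists that had 1 peak per list, the median ratio of High to Negative width was 1.06, and the High peak was wider in 6 of 7. Over the 25643 such regions of the series the median ratio was 1.07 and High was wider in 62.5%. In the same 7 regions High had the widest peak of the 4 lists in 3 (42.9%), against 18.8% over the 25643 regions of the series. The median ratio of High to Negative width was thus close to that of the series. The High-alone regions had a median width of 215 bp, against 245 bp over the series.

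The window ends cut through stretches with further peaks. The regions just inside and just outside the upper end of the Chga window were a Negative-alone region 1.8 kb inside and a High-alone region of 378 bp that began 9958 bp beyond it. A High-alone region of 136 bp lay 8.6 kb beyond the upper end of the Gcg window, where the last region inside ended 12.8 kb before it. At Sct the nearest regions outside, 4.9 kb below and 3.0 kb above the window, were held by all lists. The other enteroendocrine genes listed for comparison were not placed on mm9 and their peaks were not analysed here.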

How the data were processed

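Omni-ATAC libraries of 4 sorted populations (3 each) were represented by 1 consensus peak list per population. The submitters' processing notes name the mm9 build and the tools MACS2 2.1.2, Bowtie2 2.3.4, Trim Galore 0.4.3, deepTools 2.5.2 and Picard 2.10.3. What each tool was set to do, how libraries were combined and any shift for the transposase offset are not given in the sources used here. Lists as deposited by the authors hold positions and peak names with no count, so depth is unknown, and the part that depth has in the number of peaks was not tested. Coordinates were read as 1-based and inclusive, because some peaks start and end at the same base.

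Overlapping peaks (1 bp or more) and touching peaks were joined over the whole genome, and each region was described by the lists that hold it. Shares have exact (Clopper-Pearson) 95% intervals. The members and gene lists were chosen with earlier results of these data known. Regions were to be named by the lists that hold them, and all 41 are named. The merging was tested on 20000 simulated regions, of which 100% received the right lists. Simulated regions were set well apart and the peaks of each region all overlapped. The handling of close neighbours and of peaks joined only through another peak was thus not tested. Alternatives were windows narrowed or widened by 20 kb, peaks of at least 200 bp, the widest 45461 peaks of each list, a reciprocal overlap of 50%, merging up to 500 bp and regions of at least 500 bp. Leaving out each window was added after seeing the data. Promoters and gene order came from RefSeq on GRCm38.p6. The tools were scipy 1.17.1, pandas 2.3.3, numpy 2.4.6 and matplotlib 3.10.9 under Python 3.11.15.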

Additional observations from a re-analysis of the deposited data

How the results depend on the processing

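No paired analysis was possible because the deposited lists carry no replicate values, which also kept replicates from being left out in turn. High had the most bases under peaks in all 4 windows under each of the 4 alternatives that gave them. It had the most peaks in all 4 with narrowed and with widened windows, in 3 with peaks of at least 200 bp (2 High peaks and 2 in the next list at Gcg), and in 2 with the widest peaks of each list, where Chga had 7 High peaks against 8 in the next list. With windows narrowed by 20 kb, Chga had 3 Negative, 4 Sublow and 4 Low peaks covering 1249, 1230 and 1154 bp, Gcg had 0 Negative, 0 Sublow and 0 Low peaks with 0 bp and 1 High peak of 188 bp, and Sct had 5 Negative peaks. With windows widened by 20 kb, bases at Chga were 3529 in Sublow cells and 3408 in Low cells. Chgb then had 2 Negative, 4 Sublow and 4 Low peaks, with 1587 bp in Negative cells, 2667 bp in Sublow cells, 2849 bp in Low cells and 4514 bp in High cells. Gcg had 3 Negative, 4 Sublow, 5 Low and 7 High peaks, with 1006, 1482, 1593 and 2174 bp in that order, and 2 regions of High alone. Sct had 16 Negative, 15 Sublow, 13 Low and 17 High peaks, with 9066, 10197, 9283 and 10429 bp in that order, and 4 regions of High alone. The narrowed and widened windows differ in length and content from the first ones, and the part that length has in these changes was not tested. With peaks of at least 200 bp, Chga had 7 High and 5 Low peaks, Chgb had 4 High peaks, and regions of High alone numbered 2 at Chgb and 0 at Gcg. The widest peaks of each list gave the same values, 7 High and 5 Low peaks at Chga, 4 High peaks at Chgb, and 2 and 0 regions of High alone at Chgb and Gcg. The limit of 200 bp removes narrow peaks from every list. Taking the widest peaks removes them from Sublow, Low and High only, where the shortest peaks kept were 207, 248 and 193 bp. The Negative list was kept whole, down to 1 bp. Merging up to 500 bp joined the neighbouring Sct regions into 1 of High alone. Among regions of at least 500 bp, those of High alone were 2 at Chga and 0 at Chgb, Gcg and Sct, which was 15.4% of 13 against 3.23% over the series, and 46.2% were in all 4 lists against 68.2% over the series. The share of High alone stayed above that of the series under all 7 alternatives, from 15.4% to 50%, but its interval included the series share with peaks of at least 200 bp, with the widest peaks and with regions of at least 500 bp. It was also above with each gene window left out, from 29.4% to 43.3%. In all, 119 values stayed within 1.5-fold of the first value (counts and bases) or inside its interval (shares) and 59 did not.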

Other observations

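The closeness of opposed regions at Chga, where a region of Negative and Sublow ended 617 bp before the widest region of High alone, was noticed after the values were seen and was set beside the whole series. Of the 13694 High-alone regions, 240 (1.75%) had a region held by Negative and not by High within 1000 bp. In the 4 windows this was so for 1 of 15 (6.67%), the Chga pair itself. That pair prompted the comparison, so the share in the windows is no separate result. The median distance of High-alone regions to the nearest region of another list was 2135 bp for the 7 at Chga and 11534 bp for the 8 at the other genes, against 8532 bp over the series. The Chga window held 20 regions against a median of 4 per window of its length, and the part this has in the distance was not tested.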
